A study of Mus musculus with 4 samples.

Results

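The 9 genes described here mark pulmonary neuroendocrine cells, the hormone-secreting epithelial cells of the airway lining. They are Calca, Chga, Chgb, Syp, Uchl1, Resp18, Scg2, Scg5 and Insm1, found by gene name among the 43346 genes of the count table, where each name matched 1 row. Polyadenylated RNA was sequenced from material labelled lung epithelial cells of mice. Libraries B and E came from mice that over-express IL-33, an epithelial alarm cytokine of the IL-1 family, from a transgene, and libraries D and F came from control mice, so each genotype had 2 libraries. Strain, age, the transgene's promoter and the number of mice per library are not stated in the labels, and p-values therefore measure the spread between these libraries, which may in part be technical.

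Neuroendocrine cells are rare and lie singly or in clusters called neuroepithelial bodies, which sense oxygen, stretch and inhaled irritants. They store peptides and amines in dense-core vesicles and release them on stimulation. One of these peptides, calcitonin gene-related peptide (CGRP), acts on group 2 innate lymphoid cells, which are also a main target of IL-33. Calca encodes CGRP and, by alternative splicing, calcitonin. Chga, Chgb and Scg2 encode granins, the acidic proteins that fill the vesicles, Scg5 encodes the chaperone 7B2 of the prohormone convertase PC2, Resp18 encodes a luminal protein of the endocrine secretory pathway, and Syp encodes synaptophysin, a membrane protein of small clear vesicles. Uchl1 encodes the neuronal ubiquitin hydrolase PGP9.5, and Insm1 encodes a zinc-finger transcription factor of neuroendocrine differentiation.

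Before the start of transcription, Scg2 and Chgb hold the letters of a full cAMP response element, the sequence bound by CREB-type factors. Chga, Calca and Scg5 hold only its 5-base core. The 250 bases upstream of each RefSeq start (GRCm38.p6) were searched on both strands for the element TGACGTCA and for its 5-base core TGACG, which the full element contains once on each strand. RefSeq held a window for 8 of the 9 genes, Insm1 being the other. The full element lay in 2 of these 8 windows, against 1.55% of 32851 mouse windows of the same length, and the core in 5 of 8, against 17.8%. A further motif, CAGCTG, was also searched and lay in 2 of 8, against 13%, and is not shown. The matching stretches are shown 5′ to 3′ on the gene's strand, with the element or its core in capitals, because the windows of the granin genes and of Calca share it at a similar distance from the start.
Scg2: tgagccggTGACGTCAgcgtggaa
Chgb: ctgctccgTGACGTCAgggctgag
Chga: cggtcctaTGACGtaatttcc
Calca: cacagaggTGACGcaatctgt
Scg5: gaggtaaaTGACGttcatagg
The first capital lies 68 bases before the start for Scg2, 72 for Chgb, 44 for Chga, 65 for Calca and 175 for Scg5. The stretches are chr1:79440079-79440102 (minus strand) for Scg2, chr2:132781562-132781585 (plus) for Chgb, chr12:102554889-102554909 (plus) for Chga, chr7:114636410-114636430 (minus) for Calca and chr2:113829254-113829274 (minus) for Scg5. GENCODE M21 places the stretches of Scg2 and Chgb inside a first exon, since its transcripts begin farther upstream. A match describes the letters only, and no binding was measured.

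Each library held 76120696 to 87723745 gene counts, with 25713 to 27150 genes detected. Il33 separated the labels: in counts per 1000000 (CPM), the transgenic libraries B and E had 1723 and 874, and the control libraries D and F had 117 and 108, although in edgeR's quasi-likelihood test its adjusted p was 1. Epithelial markers were present in every library (Epcam 110 to 164 CPM, Cdh1 480 to 710 CPM), but so were those of other tissues, among them Pecam1 of endothelium at 824 to 1327 CPM and Col1a1 of fibroblasts at 181 to 533 CPM. The summed CPM of 4 Y-linked genes (Eif2s3y, Kdm5d, Uty and Ddx3y), relative to D, was 0.554% (B), 9.0% (E) and 47.5% (F). Both transgenic libraries thus lay below both controls, so that sex cannot be fully told apart from genotype.

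All 9 genes were detected in all 4 libraries and passed the filter on low counts, but most were scarce. Averaged over the libraries, 6 of the 9 lay under 1 CPM, and Chga, the lowest in CPM, had 20 to 35 counts per library. Per length, in the deposited RPKM (reads scaled to gene length and library size), Uchl1 stood first at 5.71 ± 0.66 (SD over the 4 libraries), 10.4 times the mean of the next gene. Resp18 (0.551 ± 0.276) and Scg5 (0.548 ± 0.075) followed, and their ranges overlapped. Calca (0.313 ± 0.099), Scg2 (0.294 ± 0.089) and Syp (0.269 ± 0.025) came next by mean, and each range overlapped the next. Below the lowest Syp value of 0.240 RPKM lay Chgb (0.179 ± 0.050), Chga (0.142 ± 0.031) and Insm1 (0.0971 ± 0.0323), again with overlapping neighbours. On the same per-length scale the ciliated cell factor Foxj1 stood at 33.8 ± 5.4 RPKM and the club cell product Scgb1a1 at 12044 ± 2597 RPKM. Counts of Uchl1, Syp and Resp18 may include reads of an antisense gene on the other strand, because the strand setting of the counting is not stated. The exons of Uchl1 overlap those of Uchl1os over 295 bases, those of Syp overlap Gm14703 over 875 bases, and those of Resp18 overlap Gm28902 over 40 bases.

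**Figure D1:**
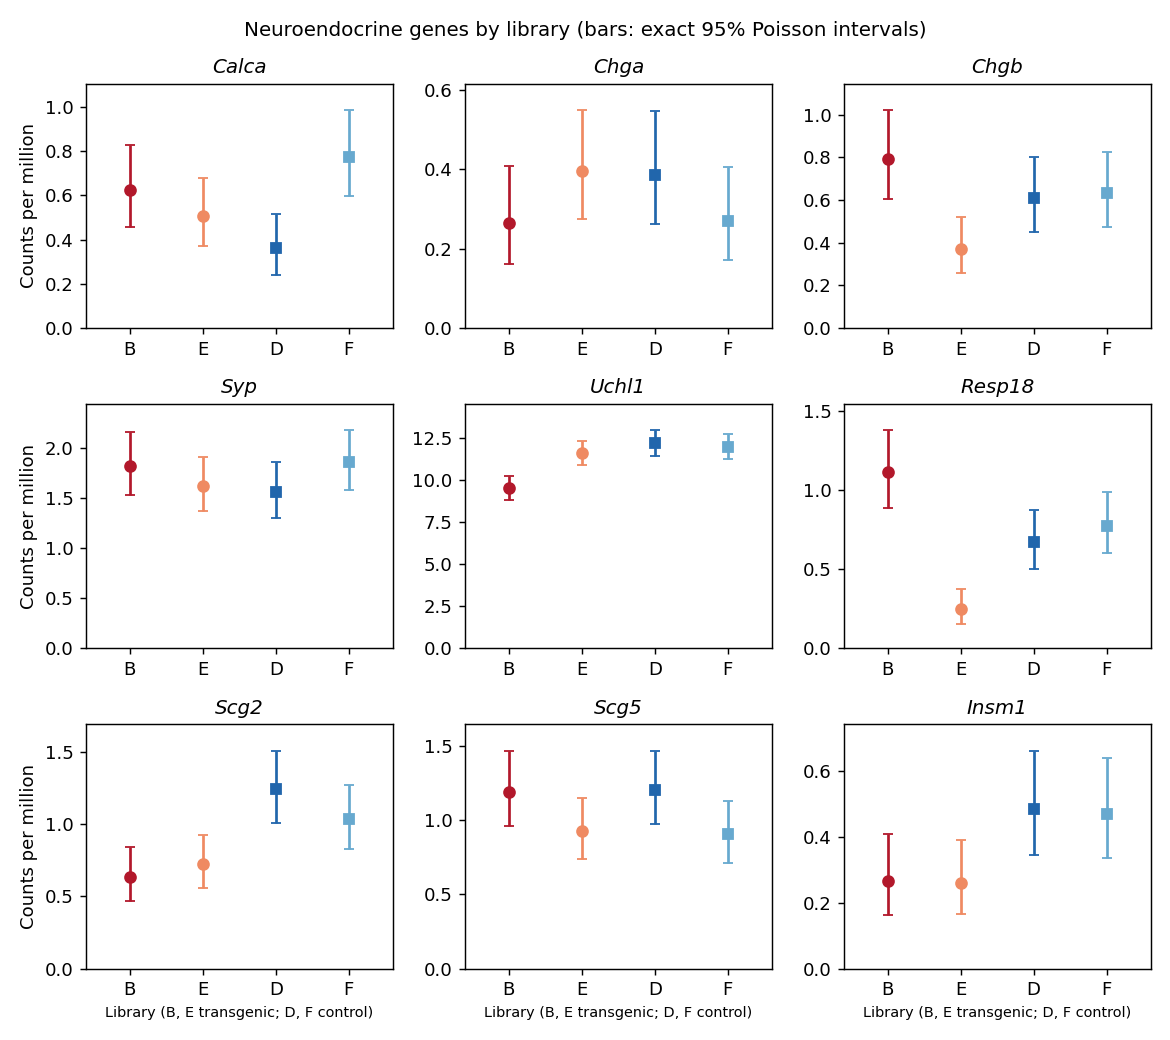
CPM (vertical axis, from 0) of the 9 genes in the transgenic libraries B and E (circles) and the control libraries D and F (squares), with bars for exact 95% Poisson intervals, which cover counting error only. The transgenic points of Scg2, Insm1 and Uchl1 lie below both control points, while Resp18 runs from 0.248 CPM in E to 1.11 CPM in B within the transgenic group.

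The genotypes were then compared to ask whether excess IL-33 goes with other levels of neuroendocrine transcripts. No neuroendocrine gene passed the test: 0 of 9 had an adjusted p under 0.05 when edgeR's quasi-likelihood test was run over 20872 genes, as did 0% of all genes, and DESeq2 and limma-voom likewise called 0 of the 9. At an unadjusted p under 0.05 there was 1 of the 9, Scg2, against 1.29% of all genes in either direction and 0.393% in the lower one. For 7 of the 9 the log2 fold change was under 0.2 in size. For Scg2, Insm1 and Uchl1 both transgenic libraries lay below both controls, and 0 of the 9 lay above, where 12.0% of all genes were lower in both and 11.9% higher. Summed over the 9 genes the level was 16.2 CPM (B), 16.7 (E), 18.7 (D) and 18.7 (F), but without Uchl1, which dominates the sum, it was 6.71 (B), 5.05 (E), 6.51 (D) and 6.73 (F), and the genotypes overlapped. In bulk RNA such as this, fewer neuroendocrine cells and less RNA per cell cannot be told apart.

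Among the vesicle cargo genes, the granin gene Scg2, which encodes secretogranin II, the precursor of secretoneurin, had the smallest p of the 9. The gene (ENSMUSG00000050711) lies on chromosome 1 from 79434669 to 79440120 (GRCm38, minus strand) and has 2 exons in GENCODE M21. It had 0.635 CPM (B) and 0.722 CPM (E) in the transgenic libraries, and 1.24 CPM (D) and 1.03 CPM (F) in the controls. Both transgenic libraries thus lay below both controls, at 48 and 64 counts against 100 and 88. The group means were 0.679 ± 0.061 and 1.14 ± 0.15 CPM (SD, n = 2 each), a log2 fold change of -0.74 (SE 0.28, 95% interval -1.45 to -0.03). The unadjusted p of edgeR's quasi-likelihood test was 0.0443 and the adjusted p was 1, so that the difference did not hold after correction over all genes. With any 1 library left out, which leaves a genotype with 1 library, the log2 fold change ran from -0.87 to -0.60. DESeq2 on all libraries gave an unadjusted p of 0.0868. With the Y-linked level of each library as a covariate, the log2 fold change was -0.36 (unadjusted p 0.672 in edgeR's quasi-likelihood test). That level was itself lower in both transgenic libraries, so its part and that of genotype cannot be fully told apart.

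The other granin genes gave no such gap. Chga, the gene of chromogranin A, stood at 0.265 CPM (B), 0.395 (E), 0.385 (D) and 0.270 (F). Each genotype thus held 1 higher and 1 lower library, and the log2 fold change was 0.02 (SE 0.43, 95% interval -1.07 to 1.11). Chgb, the gene of chromogranin B, had 0.794 CPM (B) and 0.372 CPM (E) with the transgene, and 0.608 CPM (D) and 0.634 CPM (F) without it. The transgenic libraries lay on either side of the controls (log2 fold change -0.10, SE 0.45, 95% interval -1.25 to 1.05). For Chga the interval ran from a ratio of 0.475 to one of 2.16, and for Chgb from 0.422 to 2.07. Differences of such sizes in either direction are therefore not excluded, and the intervals do not give a limit of detection.

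Of the genes of peptide handling, Resp18 varied most of all 9 between libraries of the same genotype. It stood at 1.11 CPM in B but 0.248 CPM in E, from 84 and 22 counts whose exact 95% Poisson intervals (67 to 104 and 13.8 to 33.3) did not overlap. Its control values of 0.670 CPM in D and 0.775 CPM in F lay between the transgenic ones. The log2 fold change of -0.10 (SE 0.70) had the widest interval of the 9 genes, -1.90 to 1.70. Without B, which leaves E as the only transgenic library, it was -1.53, and without E, which leaves B alone, it was 0.61. Scg5 was even across the genotypes, at 1.19 CPM (B), 0.925 (E), 1.20 (D) and 0.904 (F). Its means of 1.06 ± 0.19 and 1.05 ± 0.21 CPM (SD, n = 2 each) left a log2 fold change of 0.005 (SE 0.30, 95% interval -0.77 to 0.78).

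Calca, the CGRP gene (ENSMUSG00000030669, chromosome 7, 114631480 to 114636357 in the deposited table), overlapped between the genotypes. It stood at 0.622 CPM (B), 0.508 (E), 0.360 (D) and 0.775 (F), so that both extremes were control libraries. The transgenic mean was 0.565 ± 0.081 CPM and the control mean 0.567 ± 0.293 CPM (SD, n = 2 each), and the log2 fold change was -0.01 (SE 0.46, 95% interval -1.20 to 1.18). The value moved to -0.46 without D and to 0.65 without F. A gene count does not separate the CGRP from the calcitonin transcripts among the 7 that GENCODE M21 lists for Calca, 6 of them coding. Its paralog Calcb, which encodes the second CGRP, was scarcer still, at 0.384 CPM (B), 0.226 (E), 0.236 (D) and 0.0822 (F) (log2 fold change 0.93, SE 0.64), and related sequence in the 2 genes may have shared reads.

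Of the remaining genes, Syp varied least relative to its level. Its values were 1.83 CPM (B), 1.62 (E), 1.56 (D) and 1.87 (F), with the controls at both ends, and the log2 fold change was 0.01 (SE 0.24, 95% interval -0.60 to 0.62). Uchl1 was the most abundant of the 9, making up 58.6% to 69.6% of their summed counts in each library. Transgenic values were 9.50 CPM (B) and 11.6 CPM (E), and control values 12.2 CPM (D) and 12.0 CPM (F). Both transgenic libraries were lower, with E close to the controls. The log2 fold change was -0.19 (SE 0.15, 95% interval -0.59 to 0.20), and without B it was -0.06.

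Insm1, the transcription factor gene of the set, was lower in both transgenic libraries, but the difference did not pass the test. The gene (ENSMUSG00000068154) is a single exon on chromosome 2 from 146221921 to 146225020 (GRCm38, plus strand). The transgenic libraries had 0.265 CPM (B) and 0.260 CPM (E), the controls 0.484 CPM (D) and 0.470 CPM (F). The 20 and 23 transgenic counts lay below the 39 and 40 control counts, and the group means were 0.262 ± 0.004 and 0.477 ± 0.010 CPM (SD, n = 2 each). The log2 fold change was -0.86 (SE 0.35), the lowest of the 9 genes, with a 95% interval of -1.75 to 0.03. In edgeR's quasi-likelihood test the unadjusted p was 0.0556 and the adjusted p was 1. The exact 95% Poisson intervals of the transgenic counts (12.2 to 30.9 and 14.6 to 34.5) overlapped those of the controls (27.7 to 53.3 and 28.6 to 54.5). Within each genotype the counts lay well inside each other's interval, so the small SDs understate counting error. Leaving out any 1 library kept the log2 fold change between -0.88 and -0.84. With the Y-linked covariate it was -0.81 (unadjusted p 0.461 in edgeR's quasi-likelihood test), and DESeq2 gave an unadjusted p of 0.174.

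**Figure D2:**
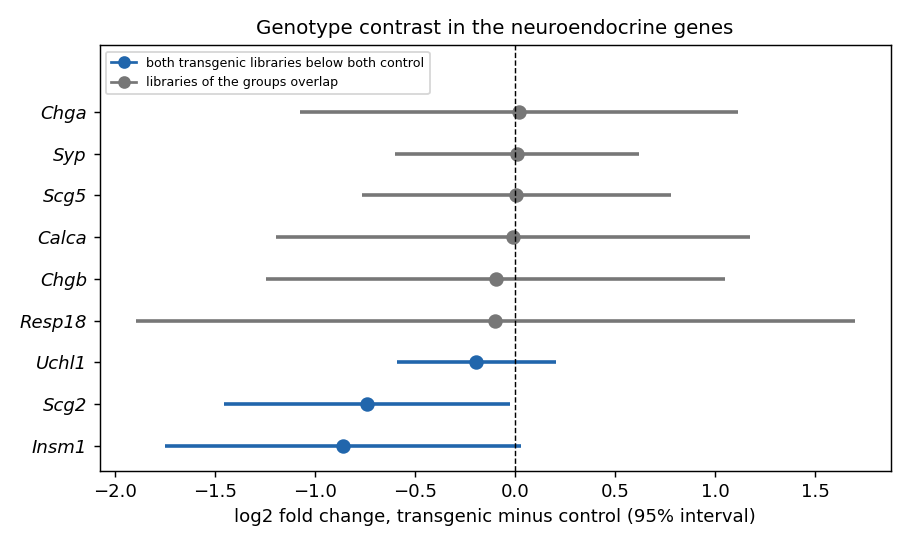
Log2 fold change of each gene, transgenic minus control (horizontal axis), as a point with its 95% interval from edgeR's quasi-likelihood fit. Blue marks the 3 genes with both transgenic libraries below both control libraries, and only the Scg2 interval, -1.45 to -0.03, leaves out 0.

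Other genes of the neuroendocrine programme were counted in the same way, and 0 of them passed the test in either direction, by edgeR, DESeq2 or limma-voom. In the 6 lists described next, some of which share genes, 0 had an unadjusted p under 0.05 in edgeR's quasi-likelihood test. Among all genes the share was 1.29% in either direction, and a count of 0 in lists of this size is near it. Of 14 tested markers of these cells outside the 9, 2 were lower in both transgenic libraries (near the 12.0% of all genes) and 0 higher, and the median log2 fold change was -0.20, against -0.001 over all genes. The 2 lower genes were Grp, which encodes gastrin-releasing peptide, and the chemokine gene Cxcl13. Grp stood at 18.7 CPM (B), 24.5 (E), 25.2 (D) and 35.6 (F), with E just under D (log2 fold change -0.49, SE 0.22). Cxcl13, which other cells also make, stood at 0.860 CPM (B), 0.812 (E), 1.23 (D) and 1.35 (F) (log2 fold change -0.62, SE 0.25). In edgeR's quasi-likelihood test the unadjusted p was 0.0763 for Grp and 0.0557 for Cxcl13, and the adjusted p was 1 for each. On the per-length scale Grp averaged 20.05 ± 5.65 RPKM over the 4 libraries, above all 9 genes.

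Transcription factors of endocrine fate were mostly at the limit of detection. Of 10, only 3 were tested, and Neurod1 and Rfx6 had 0 counts in every library. Of the 3 tested, 1 was lower in both transgenic libraries (12.0% of all genes), Prox1 (log2 fold change -0.20, SE 0.15). A count of 0 allows up to 3 counts per library. Rest, the repressor of neuronal genes outside neurons, stood at 76.3 CPM (B), 77.3 (E), 73.0 (D) and 80.0 (F), and the groups overlapped (log2 fold change 0.01, SE 0.10).

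The machinery of regulated secretion also did not pass. Of 27 tested genes, 10 had a log2 fold change above 0, where 10351 of all 20872 tested genes did. In both transgenic libraries 1 was higher and 3 were lower, neither above the 11.9% and 12.0% of all genes, and the median was -0.11. Those with the smallest p were Ptprn2, a dense-core vesicle membrane protein gene (log2 fold change -0.67, SE 0.30), Cpe, the gene of the carboxypeptidase that trims prohormones (-0.44, SE 0.25), and the complexin gene Cplx2 (-0.18, SE 0.10). The next by p, Syt1, went the other way (0.93, SE 0.54), as did Cadps2 (0.16, SE 0.10), the 1 gene higher in both transgenic libraries. Ptprn2 stood at 0.463 CPM (B), 0.587 (E), 0.844 (D) and 0.833 (F), so its genotypes did not overlap. Pcsk1 and Pcsk2, the genes of the prohormone convertases, overlapped between genotypes (log2 fold changes 0.19, SE 0.28, and -0.34, SE 0.57).

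Peptide, amine and GABA genes gave 10 tested of 19, with 0 higher (11.9% of all genes) and 2 lower (12.0% of all genes) in both transgenic libraries, the latter Grp and Vip, and a median log2 fold change of 0.04. Slc32a1, the vesicular GABA transporter gene, had 0 counts in every library. Vip, which encodes vasoactive intestinal peptide, stood at 0.199 CPM (B), 0.260 (E), 0.372 (D) and 0.376 (F) (log2 fold change -0.70, SE 0.38). On the receiving side, 7 of 8 genes of the CGRP receptor and adrenomedullin system were tested. Of these, 1 was lower in both transgenic libraries (12.0% of all genes), Crcp, and the median log2 fold change was -0.07. Ramp1, the subunit that gives the receptor its preference for CGRP, had the smallest p of that system. It stood at 40.6 CPM in E but 20.4 in B, 20.99 in D and 18.3 in F, so that 1 transgenic library alone was high (log2 fold change 0.64, SE 0.33). Calcrl, its partner, ran from 999 to 1685 CPM with overlapping groups. Of 7 tested paralogs of the 9 genes, 6 had a log2 fold change above 0, where 10351 of all 20872 tested genes did. The median of the paralogs was 0.08. The abundant synaptophysin-like gene Sypl stood at 341 CPM (B), 319 (E), 321 (D) and 321 (F).

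Cells other than neuroendocrine cells could supply some of these transcripts, since neurons also express Syp, Uchl1, Scg2 and the granins. The summed CPM of 11 neuronal markers was 74.5 (B) and 123 (E) with the transgene and 99.98 (D) and 130 (F) without it, mostly from Stmn2 and Gap43. Th had 0 counts in every library, and the defining Tubb3 and Prph stayed under 1 CPM in each. Schwann cell markers summed to 72.6 CPM (B), 56.2 (E), 60.1 (D) and 61.8 (F), and 3 of 7 were lower in both transgenic libraries (12.0% of all genes). The median log2 fold change was 0.29 over the tested neuronal markers and -0.51 over the Schwann cell markers, against -0.001 over all genes. The summed airway markers overlapped between genotypes. Club cell genes, mostly Scgb1a1, summed to 7190 and 11185 CPM against 7211 and 9421 CPM, and ciliated cell genes to 401 and 554 CPM against 423 and 514 CPM. Of 5 club cell genes, Scgb3a1 alone was lower in both transgenic libraries (12.0% of all genes), at 1.61 CPM (B), 6.48 (E), 14.3 (D) and 12.0 (F) (log2 fold change -1.69, SE 0.63). Of 4 basal cell genes, all scarce, Krt5 was higher in both transgenic libraries (0.185 and 0.305 CPM against 0.0248 and 0.0470 CPM) and Trp63 lower (0.0662 and 0.113 CPM against 0.298 and 0.247 CPM). Among all genes 11.9% were higher and 12.0% lower in both. Of 6 leukocyte genes, 3 were higher in both transgenic libraries (Ptprc, Cd3e and S100a8), against 11.9% of all genes. In edgeR's quasi-likelihood test 2 had an unadjusted p under 0.05 (Ptprc and S100a8), against 1.29% of all genes in either direction. So did the club cell gene Scgb3a1 and the basal cell genes Krt5 and Trp63. The median log2 fold change of the leukocyte genes was 0.42, and their summed level ran from 778 to 802 CPM in the transgenic and 711 to 842 CPM in the control group. None of these markers passed the adjusted test. Endothelial genes summed to 3344 CPM (B), 5398 (E), 4283 (D) and 5883 (F), and fibroblast genes to 490, 1203, 877 and 1388.5 CPM in the same order. B was thus lowest for both sums, as it was for Grp. Of the neuroendocrine genes described first, B was lowest for 3 (Uchl1, Scg2 and Chga) and highest for 2 (Chgb and Resp18). Insm1 was lowest in E, at 0.260 CPM. Scg2 was highest in D, at 1.24 CPM, where both sums lay below those of E and F. Thyroid genes, listed because thyroid C cells express Calca, summed to 4.77 and 5.65 CPM against 3.71 and 5.34 CPM, most of it Tg. The part of these cell types, and of sex, in the lower values of Scg2 and Insm1 was not tested.

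**Figure D3:**
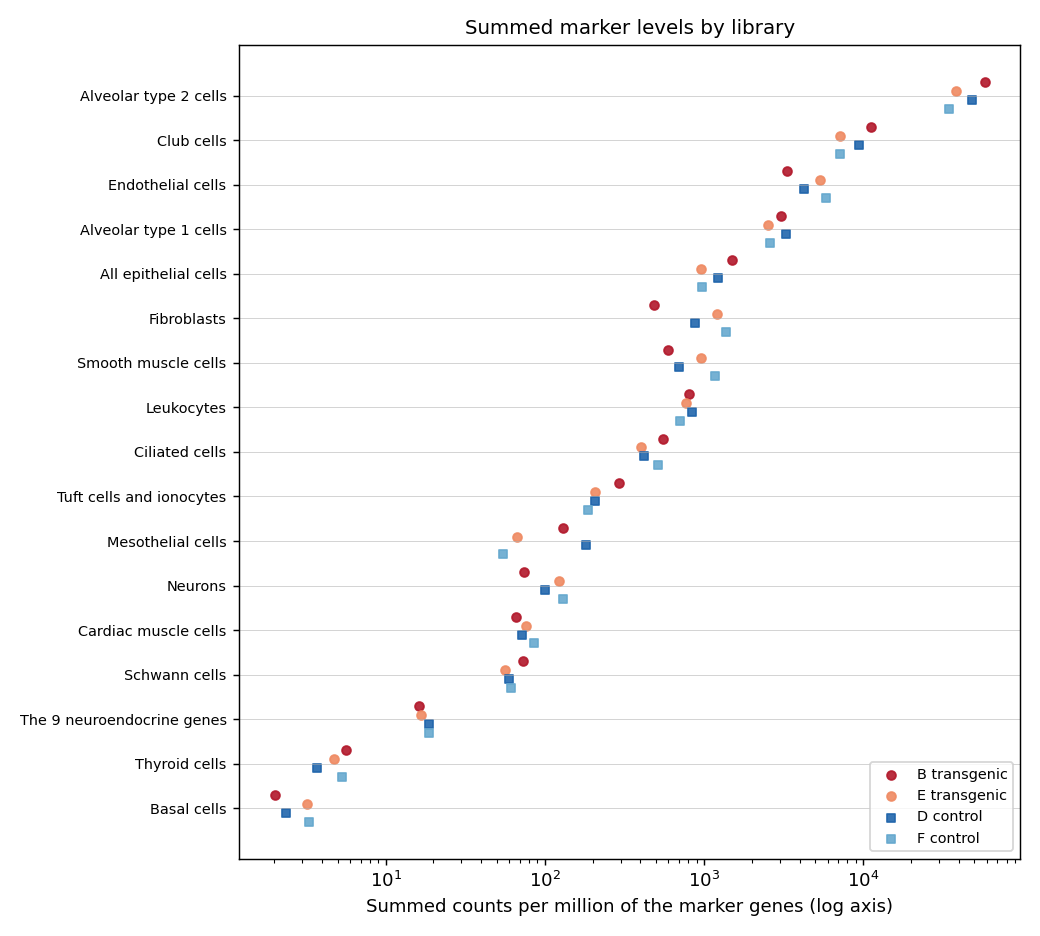
Summed CPM (log axis) of each marker list and of the 9 neuroendocrine genes in the 4 libraries, circles transgenic and squares control. The neuroendocrine sum runs from 16.2 CPM in B to 18.7 CPM in F, and the endothelial and fibroblast sums are lowest in B.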

How the data were processed

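The submitters' processing notes name TopHat2 (version 2), Bowtie (version 1), featureCounts (version 1), mm10 and GRCm38. Annotation release, strand setting and the handling of multiply matching reads: not given in the sources used here. The authors deposited whole-number counts of reads per gene, not normalized, with RPKM values beside them, and these RPKM values were used only to compare levels between genes.

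Of the 43346 genes, 20872 passed filterByExpr at a minimum count of 10 and a minimum total of 15, and TMM factors were computed on these. CPM values use the TMM-scaled library sizes. Transgenic and control libraries, 2 each, were compared without covariates in edgeR 4.0.16 under R 4.3.3, by its quasi-likelihood test with the legacy setting, with Benjamini-Hochberg adjustment over all genes. A standard error is the size of the log2 fold change over the root of its F statistic, and intervals use the fit's degrees of freedom. The script was tested on simulated data. These had less spread between libraries than the data here, and changes were placed only in genes of at least 1 CPM. They do not show how the test performs for scarcer genes. The alternatives were other scalings, other filters, each library left out, the fit without the legacy setting, DESeq2 1.42.0 and limma-voom (limma 3.58.1). A term that sets libraries B and D apart from the other two and a Y-linked covariate were chosen after seeing the data. All members of the lists matched a row by name. From the lists 2 genes were left out after the tests were run and are not reported here. The genes, lists and tests were chosen with earlier results of these data known. The rule named all 9 genes, and in each list the tested genes with the smallest p; other genes named were chosen after their values were seen. Poisson intervals and the 3 counts that a count of 0 allows cover counting error only.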

Additional observations from a re-analysis of the deposited data

How the results depend on the processing

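The count of neuroendocrine genes at an adjusted p under 0.05 was 0 under all alternatives run. Over all genes the count of 0 moved to 1 with DESeq2 (Il33) and, with 1 library left out, ranged from 0 to 15. Scg2, Insm1 and Uchl1 kept a negative log2 fold change throughout, and with other scalings 3 genes stayed lower in both transgenic libraries. At an unadjusted p under 0.05 the count of 1, Scg2, rose to 2 without the legacy setting and was 0 with DESeq2 and with the Y-linked covariate. With any 1 library left out, the log2 fold change of Scg2 ran from -0.87 to -0.60.

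The log2 fold changes near 0 turned in sign. Leaving out 1 library gave -0.46 to 0.65 for Calca, -0.31 to 0.29 for Chga, -0.73 to 0.34 for Chgb, -0.11 to 0.14 for Syp, -1.53 to 0.61 for Resp18 and -0.19 to 0.23 for Scg5. Calca turned to 0.072 with limma-voom and 0.050 with a term that sets B and D apart from the other two libraries, which left Scg2 at -0.74 and Insm1 at -0.86. With the Y-linked covariate Syp turned to -0.35, Calca moved to -1.38, Chga to 0.80, Resp18 to -0.77 and Scg5 to 0.48. Resp18 was -0.50 with limma-voom. Scg5 turned to -0.0018 with upper-quartile factors, -0.0033 without a filter and -0.0047 with the stricter filter of 1 CPM in 2 libraries, which left out Calca, Chga, Chgb, Resp18 and Insm1. The labels give letters and no replicate numbers, so they pair no libraries, and the term for B and D came from the data. Apart from Uchl1 the genes had 20 to 159 counts per library, and the intervals of most were wide. For Chgb, Resp18 and Uchl1 the Poisson intervals of the 2 transgenic libraries did not overlap, nor did those of the 2 controls for Calca. Spread there went beyond counting error. Having only 2 libraries per genotype limited all comparisons.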
